A study of Mus musculus with 115 samples.

Results

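The genes described here are the 30 glutamate receptor and receptor auxiliary genes of the mouse named in a fixed list, out of 22870 genes counted per cell. They are the 4 AMPA receptor genes (Gria1 to Gria4), the 5 kainate receptor genes (Grik1 to Grik5), 7 NMDA receptor genes (Grin1, Grin2a, Grin2b, Grin2c, Grin2d, Grin3a and Grin3b), the delta receptor gene Grid1, 6 metabotropic receptor genes (Grm2, Grm3, Grm4, Grm5, Grm7 and Grm8) and 7 auxiliary genes (Shisa6, Shisa7, Shisa9, Cnih2, Cnih3, Neto1 and Neto2). The list is defined by function, but it was chosen with earlier results of these data known. All 30 were present in the count table. Levels are in CPM, a gene's count per 1000000 counts of the cell.

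The cells were granule cells of the mouse dentate gyrus, each sampled by drawing its cytosol into a patch pipette and sequenced as 1 library. All mice carried Rbp4-Cre, and all received a retrograde AAV for EGFP in the right ventral hippocampus and a Cre-dependent mCherry AAV (AAV.cDIO-mCherry) in the left hippocampus. The left injection held either saline or kainic acid (KA), which activates glutamate receptors and provokes seizures, and cells of the left side were taken 2 weeks later whether or not they showed mCherry. EGFP+ cells carried the label taken up by axons on the opposite side, and EGFP- cells did not.

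The quality-controlled count table gave 36 KA EGFP- and 27 KA EGFP+ cells, against 27 EGFP- and 5 EGFP+ cells after saline. The study states that the cells came from 3 mice in each group except KA EGFP+, which had 9. No label gives the age of the mice or the mouse of a cell, and cells of the same mouse are not independent. Each group is therefore treated as 1 sample: levels are given with the SD over cells, differences between groups are given as sizes, and no test between groups was made. Cre drives only the mCherry that marks the injection site, so the groups do not rest on it. A cell without EGFP may still have an axon that the virus did not reach.

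Ionotropic glutamate receptors are channels built of several subunits that open when glutamate binds: AMPA receptors carry the fast synaptic current, kainate receptors modulate release and add a slow current, and NMDA receptors admit calcium and start plasticity. The subunit mix sets what a channel does, as GluA2 keeps AMPA receptors closed to calcium. Metabotropic receptors signal through G proteins, and several of them sit on axon terminals, where they limit transmitter release. Cornichon and Shisa proteins bind AMPA receptors and change how they travel and close, and Neto proteins do this for kainate receptors. Granule cells receive glutamate from the entorhinal cortex and send the mossy fibres to CA3, and in the epileptic hippocampus their axons can also sprout back onto granule cells.

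RefSeq promoter windows of build GRCm38.p6, each the 250 bases before a gene's start on its own strand, were used for 18 of the 30 genes. Those of 5 genes are shown: those of the 4 genes with the largest differences between KA and saline EGFP- cells over all titles (Gria4, Grm7, Cnih3 and Grik2), and that of Gria2. The mean level of Gria2 was high in every group, though its level was not high in every cell. Capitals mark the letters of any motif searched. All 5 are read 5′ to 3′.
Gria4 (chr9:4796235-4796484, minus strand): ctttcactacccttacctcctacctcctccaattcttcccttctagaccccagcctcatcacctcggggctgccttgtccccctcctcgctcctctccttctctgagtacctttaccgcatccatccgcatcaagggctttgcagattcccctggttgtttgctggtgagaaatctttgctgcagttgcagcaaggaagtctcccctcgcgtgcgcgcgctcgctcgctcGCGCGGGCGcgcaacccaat
Grm7 (chr6:110645348-110645597, plus strand): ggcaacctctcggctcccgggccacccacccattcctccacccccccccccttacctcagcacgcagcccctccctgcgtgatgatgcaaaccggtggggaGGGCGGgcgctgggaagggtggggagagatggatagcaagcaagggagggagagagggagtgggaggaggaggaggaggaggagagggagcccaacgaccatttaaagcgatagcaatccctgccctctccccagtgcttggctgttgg
Cnih3 (chr1:181352378-181352627, plus strand): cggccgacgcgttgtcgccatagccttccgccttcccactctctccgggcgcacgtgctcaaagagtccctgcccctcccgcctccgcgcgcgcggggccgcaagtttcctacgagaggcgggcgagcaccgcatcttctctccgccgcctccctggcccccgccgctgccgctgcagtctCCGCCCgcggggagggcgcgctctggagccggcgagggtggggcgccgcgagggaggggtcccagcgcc
Grik2 (chr10:49788755-49789004, minus strand): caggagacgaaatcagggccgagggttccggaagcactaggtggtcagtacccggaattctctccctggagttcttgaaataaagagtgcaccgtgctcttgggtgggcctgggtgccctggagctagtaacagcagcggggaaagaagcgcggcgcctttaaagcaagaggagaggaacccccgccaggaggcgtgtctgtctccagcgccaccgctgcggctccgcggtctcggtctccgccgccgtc
Gria2 (chr3:80802836-80803085, minus strand): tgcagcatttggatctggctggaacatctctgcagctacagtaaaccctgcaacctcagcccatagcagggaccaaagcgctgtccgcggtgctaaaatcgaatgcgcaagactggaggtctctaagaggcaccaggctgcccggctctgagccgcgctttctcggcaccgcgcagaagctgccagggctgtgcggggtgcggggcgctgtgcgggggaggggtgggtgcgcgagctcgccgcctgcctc

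The motifs searched on both strands were the CRE TGACGTCA, the AP-1 site TGANTCA, the EGR site GCGNGGGCG, the GC box GGGCGG, which can overlap the EGR letters, and the left part of the RE1 element, TTCAGCACC. Gria4 held the EGR letters, as GCGCGGGCG with the first base 20 bases before the start, and was the only one of the 18 to do so, against 4.7% of all 32851 windows. Grm7 and Cnih3 each held 1 GC box, on the reverse strand as CCGCCC in Cnih3, and 12 of the 18 windows held at least 1 (32.7% of all windows). The Grik2 and Gria2 windows held none of these letters. AP-1 letters were in Grin3b and Grm8 (6.75% of all windows), the RE1 letters in Grm2 (0.301%), and the CRE in 0 of the 18 (1.55%). A match of letters is a description and shows no binding. No window was used for Gria1, Gria3, Grik1, Grin2a, Grin2b, Grin3a, Grid1, Grm4, Grm5, Shisa6, Shisa9 and Neto1.

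The 95 cells had 1277978 to 56183007 counts and 1469 to 9945 genes with a count. Titles are numbered in 2 series, a first from 1 to 48 (KA cells only) and a second of higher numbers (all saline cells, 15 of the KA EGFP- and 3 of the KA EGFP+ cells), and the series differed within 1 group: KA EGFP- cells had a median of 6974 genes in the first series and 3707 in the second. Only the second series holds both treatments, so KA differences are also given there. The labels may be displaced by 1 title: the title before each of the 20 cells left out of the table was labelled as failing quality control, and this held for 0 of the kept cells. A shift of the group labels by 1 title would change the treatment of 1 kept cell and the group of 21, which bears mostly on the EGFP comparisons. Summed levels of 15 granule cell markers had medians of 4344 CPM in EGFP- and 2471 CPM in EGFP+ saline cells, and of 2019 and 2244 CPM in the KA cells. They reached 0.1% of counts in 24 of 27, 4 of 5, 29 of 36 and 26 of 27 cells of these groups (10 of 15 KA EGFP- cells of the second series), and Tdo2 was at 0 in all KA cells. Microglial markers (16 genes) reached 0.1% of counts in 12 of 27 saline EGFP- and 4 of 5 saline EGFP+ cells, in 6 of 36 KA EGFP- cells, all of the second series, and in 10 of 27 KA EGFP+ cells.

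In EGFP- cells, KA went with higher mean levels of the AMPA receptor gene Gria4, the presynaptic metabotropic receptor gene Grm7, the cornichon gene Cnih3 and the kainate receptor gene Grik2. Mean levels of Gria1 and of the auxiliary gene Shisa6 were lower. Differences are of the mean over cells of log2(CPM+1), and a gene counts as measured where the average of its group means is at least 1. Over all titles, 4 of the 21 measured genes were at least 2 higher after KA, a 4-fold difference on this scale, and 0 were at least 2 lower. Among all 8816 genes measured, 7.93% were at least 2 higher and 2.48% at least 2 lower. In the second series the direction was the same for these genes and the differences smaller for the higher ones: 1 of 20 measured genes was at least 2 higher (Grm7) and 2 were at least 2 lower (Gria1 and Shisa6), against 1.93% and 13.6% of all 7815 genes. The count of lower genes is thus not above the share over all genes. Gria4 had a mean below 1 in saline cells and was measured only through its KA level. Shisa6 had a mean below 1 in KA cells and was measured only through its saline level. Counts over the measured genes favour such genes.

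**Figure D1:**
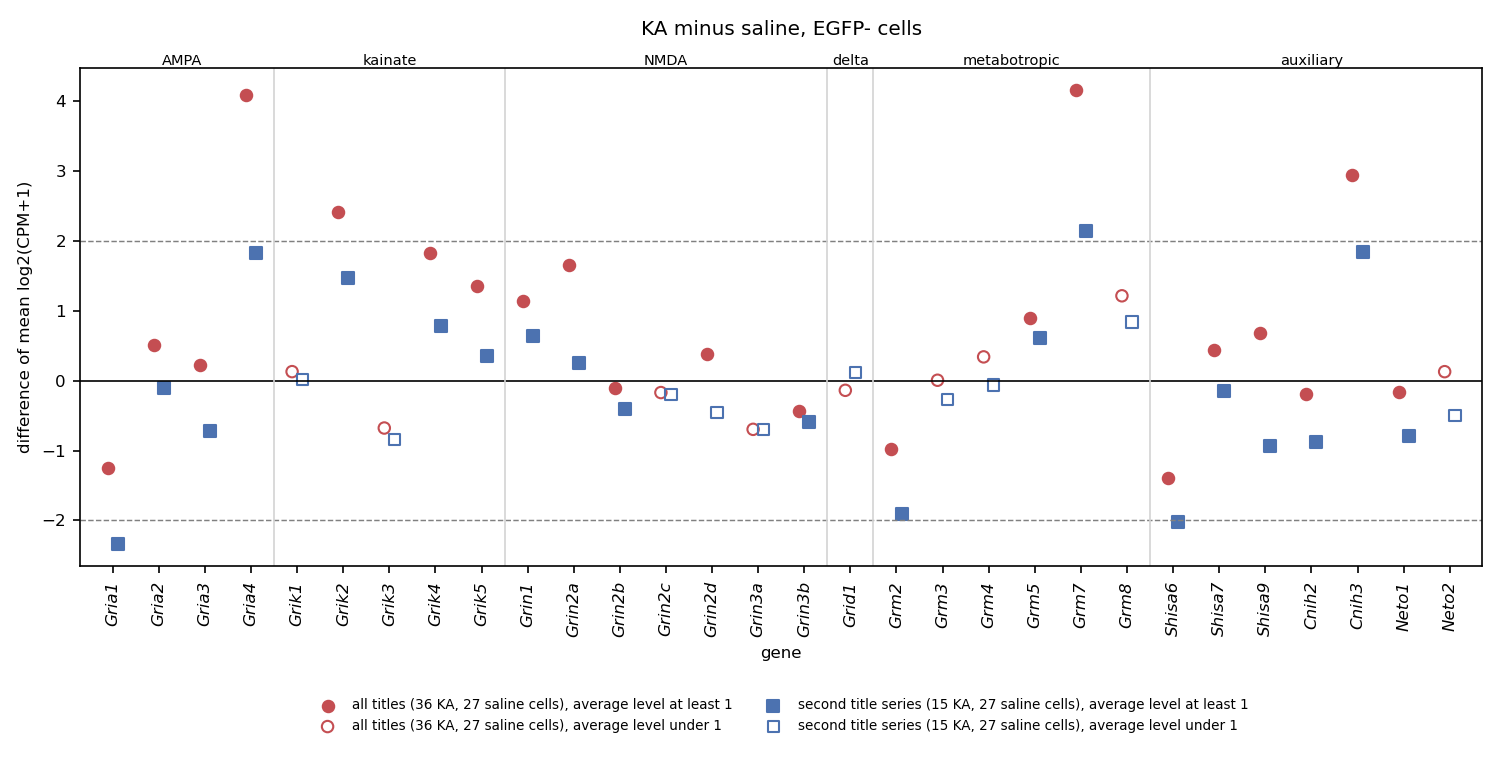
Difference between KA and saline EGFP- cells for each of the 30 genes, as mean log2(CPM+1) in KA cells less that in saline cells (y axis), with the genes along the x axis, over all titles (red circles) and in the second series (blue squares). Filled symbols are genes measured in that comparison and dashed lines stand at 2 in each direction: Gria4 and Grm7 lie at 4.09 and 4.15 over all titles and at 1.83 and 2.15 in the second series.

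Gria4 encodes GluA4, an AMPA receptor subunit best known from interneurons and from early development. In the 27 saline EGFP- cells its level ran from 0 to 35.9 CPM with a median of 0, and in the 36 KA EGFP- cells from 0 to 1420 CPM with a median of 93.9. Most KA cells lay above every saline cell: 21 of 36 exceeded the highest saline value, 17 of 21 in the first series and 4 of 15 in the second series. The mean log2 level was 4.96 ± 3.73 (SD, n = 36) against 0.87 ± 1.84 (SD, n = 27), a difference of 4.09, and in the second series it was 2.70 ± 3.92 (SD, n = 15), a difference of 1.83. Below, a gene is called counted in a cell where at least 1 count was left after the cell was thinned to 1000000 counts, and counts before thinning are named as such. Gria4 was counted in 26 of 36 KA cells (Clopper-Pearson 95% interval 54.8 to 85.8%), against 6 of 27 saline cells (8.62 to 42.3%), and before thinning in 27 and 6 cells. In the second series it was counted in 7 of 15 KA cells (21.3 to 73.4%), an interval that overlaps that of the saline cells. These intervals cover counting of cells only and not differences between mice.

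Gria1, the gene of GluA1, went the other way. Saline EGFP- cells had 0.856 to 2557 CPM with a median of 374, and KA EGFP- cells 0 to 987 CPM with a median of 266.8. The mean log2 level was 6.55 ± 3.22 (SD, n = 36) against 7.80 ± 2.77 (SD, n = 27) in saline, a difference of -1.25, and in the second series it was 5.46 ± 4.00 (SD, n = 15), a difference of -2.33. The ranges overlap almost whole, and after thinning Gria1 was still counted in 33 of 36 KA cells against 26 of 27 saline cells (33 and 27 before thinning). The size of the difference depended on the cells taken: it was -2.60 without cells at 0.1% or more of microglial markers (30 KA and 15 saline cells), -0.83 in cells with at least 0.1% of granule cell markers and -0.73 in cells with at least 4000 genes.

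Gria2, which encodes the subunit that blocks calcium entry, was at like levels in both groups. Its median was 743.7 CPM (18.8 to 3477) in saline and 1195 CPM (0 to 3196) in KA EGFP- cells, and the mean log2 levels of 9.08 ± 2.16 and 9.60 ± 2.48 differ by less than the SD in either group. The difference was 0.52 over all titles and -0.11 in the second series. Gria3 (GluA3) was likewise within the spread, with means of 4.61 ± 3.63 in saline and 4.84 ± 3.35 in KA and differences of 0.23 and -0.72.

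**Figure D2:**
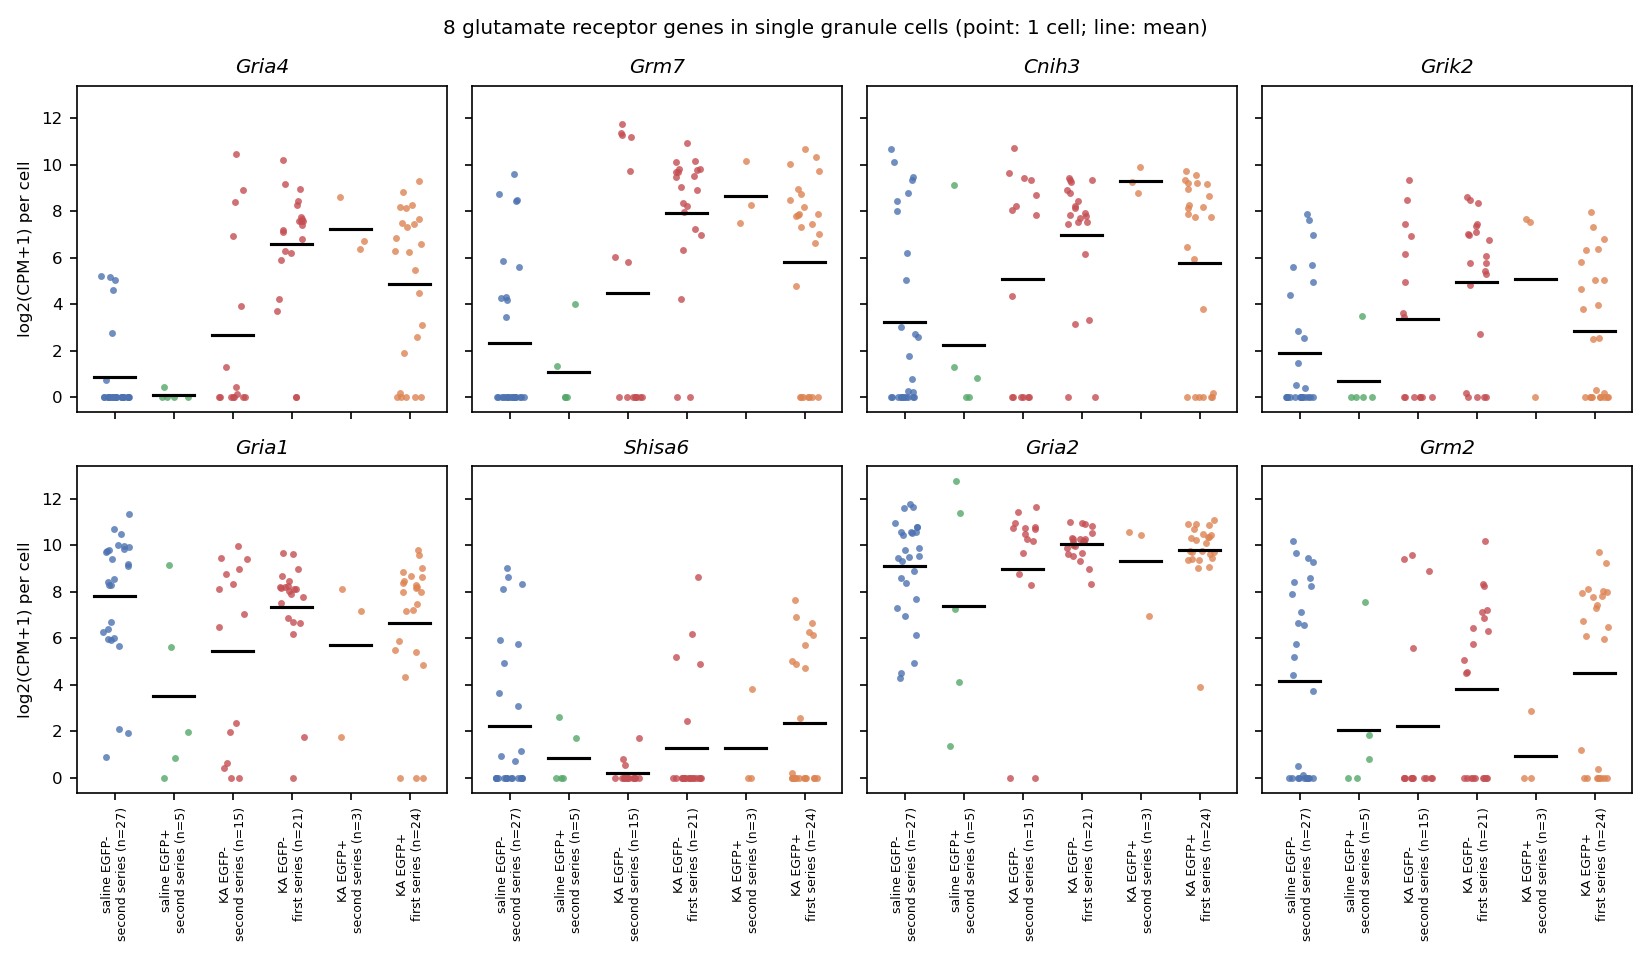
Level per cell of 8 genes, as log2(CPM+1) (y axis), in 6 columns of cells: saline EGFP- (27), saline EGFP+ (5), KA EGFP- of the second series (15) and of the first (21), and KA EGFP+ of the second series (3) and of the first (24). Each point is 1 cell and each line the mean: Gria4 means lie at 0.87 and 0.09 in saline and between 2.70 and 7.24 in the KA columns, whereas Gria2 means lie between 7.37 and 10.05 in all 6 columns.

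The mix of AMPA subunits in a cell does not depend on how the cell was scaled, so it was computed as each gene's share of the AMPA counts per kilobase of exon. In saline EGFP- cells, Gria1 and Gria2 took about equal mean shares, 45.2% ± 28.1 and 45% ± 27.9 (SD, n = 27), with 9.15% for Gria3 and 0.687% ± 2.15 for Gria4. In KA EGFP- cells the mean share of Gria1 was 25.9% ± 18.7 and that of Gria4 14.8% ± 16.3, with 51.9% ± 21.4 for Gria2 (SD, n = 34 cells with at least 10 AMPA counts). Gria1 held 50% or more of the AMPA signal in 12 of 27 saline cells and in 4 of 34 KA cells. In the second series the KA shares were 25.3% for Gria1 and 10.1% ± 17.4 for Gria4 (n = 13 cells), so the direction of both differences was the same there. In summed counts, which weigh deep cells more, Gria1 had 52.6% in saline and 31.7% in KA, and Gria4 0.516% and 17.6%. KA EGFP+ cells had means of 26.1% for Gria1, 52.8% for Gria2 and 14.7% for Gria4 (n = 27).

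**Figure D3:**
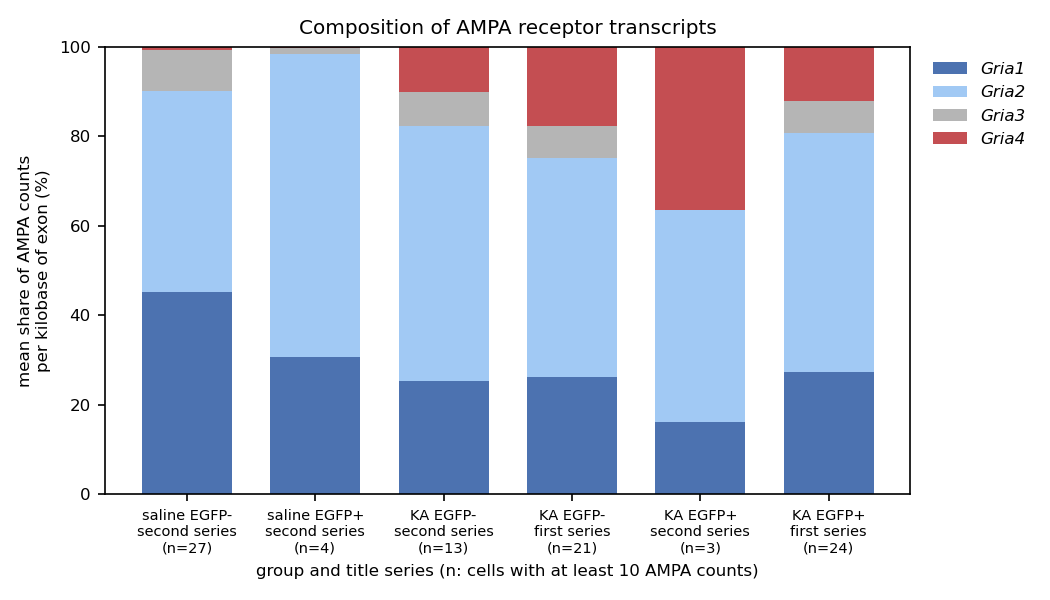
Mean share of each AMPA receptor gene in a cell's AMPA counts per kilobase of exon, in percent (y axis), stacked by gene for each group and title series of cells with at least 10 AMPA counts. Gria1 takes 45.2% after saline and 26.3% and 25.3% after KA in the first and second series of EGFP- cells, and Gria4 takes 0.687%, 17.7% and 10.1%.

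Among the kainate receptor genes, the 3 measured ones had higher means after KA over all titles and in the second series, where 65.6% and 32.5% of all measured genes were higher. Grik2 encodes GluK2, a core subunit that forms channels by itself. It had 0 to 234.6 CPM with a median of 0 in saline EGFP- cells and 0 to 656 CPM with a median of 40.3 in KA EGFP- cells. Only 5 of 36 KA cells exceeded the highest saline cell, and the groups also differ in how many cells had the gene: 25 of 36 (51.9 to 83.7%) against 10 of 27 (19.4 to 57.6%), with 25 and 12 before thinning. Mean log2 levels were 4.30 ± 3.37 and 1.89 ± 2.76, a difference of 2.41 over all titles and 1.47 in the second series, where 8 of 15 KA cells had a count.

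Grik4 and Grik5 encode GluK4 and GluK5, high-affinity subunits that need a core subunit as partner. Grik4 means were 3.69 ± 3.19 in KA and 1.86 ± 2.65 in saline EGFP- cells, a difference of 1.83 (0.78 in the second series), with counts in 25 of 36 and 12 of 27 cells. Grik5 differed by 1.36 (0.36), with counts in 26 of 36 and 14 of 27 cells. Both differences are smaller than the SD over cells, as are those of Grik2, Cnih3 and Gria1. That SD describes the spread of cells and not the uncertainty of a difference of means. Grik1 and Grik3, the other core subunits, were rare: before thinning, Grik1 had 0 counts in saline cells and a count in 2 of 36 KA EGFP- cells, and Grik3 had a count in 8 of 27 saline EGFP- cells, in 1 of 36 KA EGFP- cells and in 2 of 27 KA EGFP+ cells. Shares within the kainate family varied widely between cells. Grik2 took a mean of 22.7% ± 37.1 in 20 saline cells and 24.6% ± 28.7 in 31 KA cells, whereas in summed counts it took 6.62% and 21.8%, so for Grik2 the answer differs between the mean over cells and the sum.

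The NMDA receptor genes showed no difference of 2 or more between KA and saline EGFP- cells. Grin1, the subunit every NMDA receptor needs, was counted in 33 of 36 KA and 24 of 27 saline cells, with means of 6.68 ± 2.91 and 5.54 ± 3.04 (difference 1.14, and 0.63 in the second series). Grin2b, the GluN2B gene, had nearly equal means of 7.49 ± 2.35 and 7.59 ± 2.00. Grin2a, whose GluN2A subunit is typical of mature synapses, had means of 5.58 ± 3.48 and 3.92 ± 3.50, and its difference of 1.66 over all titles was 0.25 in the second series. Its share of the GluN2 counts per kilobase showed the same dependence on the series: 24.1% after saline, and 43.0% and 18.6% in KA EGFP- cells of the first and of the second series. The KA difference of Grin2a over all titles thus rests on the first series, for which there are no saline cells.

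The other NMDA receptor genes were low or rare. Grin2d was counted in 8 of 36 KA and 4 of 27 saline EGFP- cells, and Grin2c in 1 cell of each group. Grin3a, a glycine-binding subunit gene, was counted in 5 of 27 saline EGFP- cells and 3 of 27 KA EGFP+ cells, and in 0 of 36 KA EGFP- cells, before thinning as after it. By counting of cells alone, and with cells taken as independent, 0 of 36 allows up to 8.33% of cells with a count. Grin3b had means of 1.89 in saline and 1.46 in KA, but 32.1% of its exon bases are shared with Tmem259, and without strand information its counts are uncertain. Grid1 encodes GluD1, a delta receptor that links synapses through cerebellins; it was counted in 5 of 27 saline and 4 of 36 KA EGFP- cells (8 and 6 before thinning), with 1 KA cell at 1086 CPM.

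Grm7 encodes mGlu7, an inhibitory group III receptor of the active zone with low affinity for glutamate, and over all titles its difference was the largest of the 30 genes, next to that of Gria4. The order did not hold elsewhere: in the second series Gria1 differed more in size (-2.33 against 2.15), and in summed counts Gria4 did (4.85 against 2.79). Saline EGFP- cells had 0 to 766 CPM with a median of 0, and KA EGFP- cells 0 to 3405 CPM with a median of 310. Of the KA cells, 13 of 36 lay above the highest saline cell, 8 of 21 in the first series and 5 of 15 in the second series. Mean log2 levels were 6.48 ± 4.39 (SD, n = 36) and 2.33 ± 3.38 (SD, n = 27), a difference of 4.15. In the second series the KA mean was 4.48 ± 5.23 (SD, n = 15), a difference of 2.15, and the cells were split: the median was 0 CPM while 7 of 15 cells had a count. Over all titles 26 of 36 KA cells had a Grm7 count (54.8 to 85.8%), against 10 of 27 saline cells (19.4 to 57.6%).

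Grm2 encodes mGlu2, a group II receptor known from mossy fibre terminals. It had 0 to 1144 CPM with a median of 20.6 in saline and 0 to 1173 CPM with a median of 0 in KA EGFP- cells. Its mean log2 level was 3.17 ± 3.78 against 4.14 ± 4.00, a difference of -0.97 (-1.91 in the second series) that is smaller than the spread. In summed counts the direction turned, to 0.36, and without cells at 0.1% or more of microglial markers the difference was -2.10. Grm2 was counted in 16 of 36 KA and 16 of 27 saline cells. Grm5, the group I receptor gene that acts through Gq, was counted in 31 of 36 and 19 of 27 cells, with means of 5.63 ± 3.12 and 4.73 ± 3.52. The group III gene Grm8 was counted in 7 of 36 KA and 1 of 27 saline EGFP- cells, with 6 of the KA cells above the saline one, but its averaged level was too low to count as measured. Grm3 and Grm4 were counted in at most 4 cells of either group.

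Cnih3, an AMPA receptor cornichon gene, was the auxiliary gene with the largest difference over all titles. Saline EGFP- cells had 0 to 1632 CPM with a median of 0.730, and KA EGFP- cells 0 to 1667 CPM with a median of 229.7. The upper ends are close and the medians far apart. Mean log2 levels were 6.18 ± 3.70 and 3.24 ± 3.99, a difference of 2.94, and in the second series the KA mean was 5.09 ± 4.51 and the difference 1.85. The difference over all titles was smaller than the SD over cells of either group, and in summed counts it was 0.97. Cnih3 was counted in 28 of 36 KA cells (60.8 to 89.9%), against 13 of 27 saline cells (28.7 to 68.1%), and before thinning in 28 and 16. Its close relative Cnih2, which drives AMPA receptors to the surface in the same way, had means of 7.49 ± 2.40 and 7.68 ± 2.19. Of the Cnih2 and Cnih3 counts per kilobase, the mean share of Cnih3 was 15.3% after saline and 30.5% after KA in EGFP- cells (30.0% in the second series of KA cells), and 36.7% in KA EGFP+ cells.

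Shisa6 encodes an auxiliary protein that keeps AMPA receptors from desensitising, and was the auxiliary gene with the largest negative difference. Saline EGFP- cells had 0 to 520 CPM and KA EGFP- cells 0 to 394 CPM, both with a median of 0. In the second series no KA EGFP- cell exceeded 2.27 CPM. Means were 0.84 ± 2.05 in KA and 2.23 ± 3.25 in saline, a difference of -1.39 (-2.03 in the second series), with counts in 6 of 36 and 10 of 27 cells. Shisa9, which slows the recovery of AMPA receptors in granule cells, differed by 0.68 over all titles and by -0.93 in the second series, so its direction depends on the series. Shisa7 means were 1.92 and 1.47, and those of Neto1 1.62 and 1.78. Neto2, the other kainate receptor auxiliary gene, was counted in 5 of 36 KA and 3 of 27 saline EGFP- cells.

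Levels of different genes were set side by side per kilobase of exon. In saline EGFP- cells the mean log2(CPM per kilobase + 1) was highest for Cnih2 (7.25), followed by Gria1 (5.39) and Gria2 (5.24), Grin2b (3.31), Grin1 (2.98) and Grm2 (2.89). In KA EGFP- cells the order was Cnih2 (7.07), Gria2 (5.88), Cnih3 (5.07), Grm7 (4.66), Gria1 (4.41), Grin1 (3.88), Grin2b (3.32) and Gria4 (3.21). Neighbours in either order differ by less than the SD over cells of their log2 levels, whereas Gria4 stood at 0.42 in saline.

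Beside these differences, several other values moved with KA. Levels in KA EGFP- cells were higher in the first series than in the second series for all 21 genes measured in that comparison, with a median of 1.604, and 90.7% of all 8874 genes were also higher, with a median of 1.69. Of the 21, 4 genes were at least 2 higher (Gria4 3.87, Grm7 3.44, Shisa9 2.76 and Grin2a 2.41), whereas 40.6% of all genes were at least 2 higher and 0.451% at least 2 lower. Without cells at 0.1% or more of microglial markers, the series differed by 2.28 for Gria4 and by 0.455 for Grm7, and in summed counts by 1.11 and -0.92. Markers of interneurons, which express Gria4, reached 0.1% of counts in 17 of 36 KA and 4 of 27 saline EGFP- cells. Their median sums were 761 and 231.01 CPM (ranges 0 to 4306 and 0 to 2799, 9 of the 10 markers listed). The sum was thus higher after KA, but not the list as a whole. A mean log2 level of at least 1 was reached by 2 of the 9 in KA and by 3 in saline EGFP- cells, and all 9 had counts in some saline EGFP- cells. Of the 9, the GABA transporter gene Slc32a1 and the subclass markers Sst and Vip were at 0 in every KA EGFP- cell, and the other 6 had counts in some. In the 19 KA and 23 saline cells below 0.1%, the differences were 3.55 for Gria4, 2.90 for Grm7, 1.95 for Cnih3 and 2.50 for Grik2. In cells with at least 0.1% of granule cell markers (29 and 24 cells) they were 4.70, 4.16, 3.23 and 2.47, and without cells at 0.1% or more of microglial markers (30 and 15 cells) 4.71, 4.43, 2.65 and 2.57. In cells with at least 4000 genes (24 and 15 cells) they were 5.05, 3.51, 3.39 and 1.48. Relative to the median difference of all genes, 0.44, they were 3.65, 3.72, 2.50 and 1.97 over all titles. These subsets of cells, other than that by microglial markers, were chosen after the data were seen.

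Gria4, Grm7 and Cnih3, chosen after their values were seen, were each counted in most KA cells, so many KA cells would hold all 3 in any case. The overlap that the counts of the single genes would give was not computed. After thinning, all 3 were counted in 20 of 36 KA EGFP- cells (17 of 21 in the first series and 3 of 15 in the second series) and 15 of 27 KA EGFP+ cells, against 2 of 27 EGFP- and 0 of 5 EGFP+ saline cells. Cells with all 3 also had more genes counted in total: a median of 6488.5 genes against 3313 in the other KA EGFP- cells, and of 7613 against 4240 in KA EGFP+ cells. The part of the number of genes in these counts of cells was not tested. Across pairs of members the correlation of log2 levels varied widely. It had a median of 0.199 (-0.20 to 0.59, 78 of 91 pairs above 0) in the 27 saline EGFP- cells and of 0.260 (-0.20 to 0.63, 137 of 153 pairs above 0) in the 24 KA EGFP+ cells of the first series. In KA EGFP- cells it was 0.048 (-0.49 to 0.77, 87 of 153 pairs above 0) over 21 cells of the first series and 0.176 (-0.52 to 0.91, 90 of 120 pairs above 0) over 15 of the second. All values of a cell share its library.

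The number of members found in a cell went with the number of all genes found in it. After thinning, a median of 14 of the 30 genes was counted in saline EGFP- cells (4 to 20), 12 in saline EGFP+ cells (12 to 16), 15.5 in KA EGFP- cells (0 to 23) and 17 in KA EGFP+ cells (4 to 21). Within KA EGFP- cells the median was 17 in the first series and 12 in the second series, a wider gap than between KA and saline EGFP- cells. Between KA and saline EGFP+ cells the gap was as wide, 17 against 12. One KA EGFP- cell of the second series had 0 members and 1380 genes after thinning, and 2 such cells lacked Gria2.

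**Figure D4:**
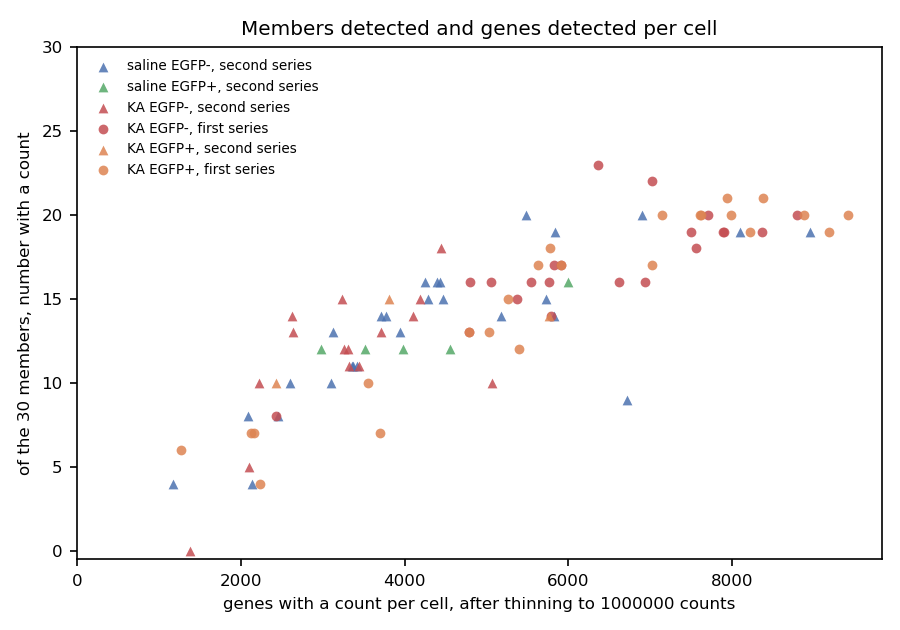
Number of the 30 genes counted in a cell (y axis) against the number of all genes counted in it (x axis), both after thinning to 1000000 counts, with 1 symbol per cell coloured by group, circles for the first series and triangles for the second series. Cells with more genes had more of the 30, from 0 members at 1380 genes to a highest value of 23.

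EGFP+ and EGFP- cells after KA had like levels of most of these genes when all titles were pooled: of 23 measured genes 9 were higher in EGFP+ cells (65.1% of all genes were), 0 were at least 2 higher and 0 at least 2 lower, with a median difference of -0.20 against 0.29 over all 9308 genes, of which 1.41% were at least 2 higher and 0.172% at least 2 lower. In the first series (24 EGFP+ and 21 EGFP- cells) 5 of 23 were higher in EGFP+ cells (35.6% of all genes were), and Grik4, Grik2 and Grm7 were at least 2 lower, against 0.751% of 9724 genes at least 2 higher and 2.56% at least 2 lower. Both comparisons share cells. Gria4, Grm7, Cnih3 and Grik2 had higher means in KA EGFP+ cells, too, than in saline EGFP- cells, as follows.

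Gria4 had 0 to 629 CPM with a median of 82.8 in the 27 KA EGFP+ cells and was counted in 21 of them. Its mean log2 level of 5.12 ± 3.30 differed from that of the KA EGFP- cells by 0.16 over all titles, by -1.72 in the first series and by 4.54 in the second series. The last value rests on 3 EGFP+ cells, at 6.39, 6.73 and 8.61, against 15 EGFP- cells. Grm7 in KA EGFP+ cells ran from 0 to 1615 CPM with a median of 221.4 and was counted in 20 of 27, with differences of -0.35, -2.09 and 4.16 in the same order. Cnih3 ran from 0 to 966 CPM with a median of 278.6 and was also counted in 20 of 27, with differences of -0.03, -1.21 and 4.22. For all 3 genes the direction of the EGFP difference turned with the title series.

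Grik2 in KA EGFP+ cells had 0 to 249.04 CPM with a median of 4.88 and was counted in 15 of 27. It was lower than in EGFP- cells over all titles (-1.19) and in the first series (-2.10), and higher in the second series (1.71). In titles 20 to 48, where both classes occur (5 EGFP+ and 21 EGFP- cells), the difference was -4.20. Grik4 had differences of -1.02, -2.25 and 3.90 over all titles and in the 2 series, with 1 EGFP+ cell at 906 CPM. Gria3 was lower in EGFP+ cells throughout (-1.15, -1.37 and -3.89), with counts in 15 of 27 against 26 of 36 cells.

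Over all titles and in the first series, Shisa6 and Grid1 had the largest positive differences of the measured genes in EGFP+ cells after KA, whereas in the second series those of Gria4, Cnih3, Grm7 and Grik4 were larger. Shisa6 was counted in 11 of 27 EGFP+ and 6 of 36 EGFP- cells, with means of 2.24 ± 2.89 and 0.84 ± 2.05 and differences of 1.40 over all titles and 1.06 in each series. Its difference was 0.225 without cells at 0.1% or more of microglial markers and 0.50 in summed counts. Grid1 was counted in 10 of 27 and 4 of 36 cells, with means of 1.77 ± 2.55 and 0.48 ± 1.78 and differences of 1.29 over all titles and 1.42 in each series. In the second series each difference rests on 1 of the 3 EGFP+ cells, at 12.9 CPM for Shisa6 and another at 87.8 CPM for Grid1, as the other 2 had 0 counts of the gene. The differences of Shisa6 and Grid1 are smaller than the SD over cells. Over all titles both genes had a mean below 1 in EGFP- cells and were measured only through their EGFP+ level. A ranking among the measured genes favours positive differences of such genes. Grm2 was counted in 16 of 27 EGFP+ cells with a median of 62.0 CPM, and its mean of 4.11 ± 3.82 was near that of the saline EGFP- cells.

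**Figure D5:**
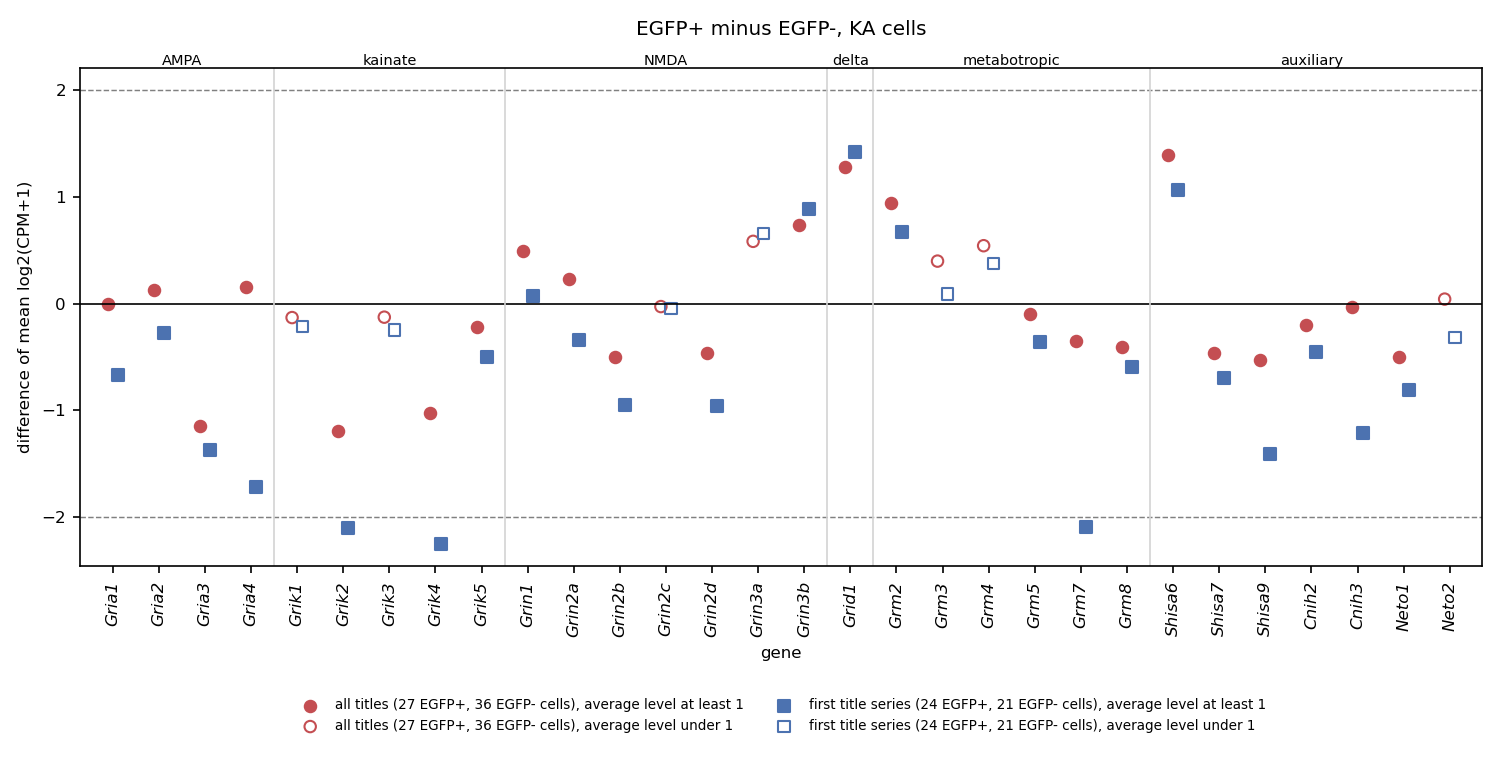
Difference between EGFP+ and EGFP- cells after KA for each of the 30 genes, as mean log2(CPM+1) in EGFP+ cells less that in EGFP- cells (y axis), with the genes along the x axis, over all titles (red circles) and in the first series (blue squares). Filled symbols are genes measured in that comparison and dashed lines stand at 2 in each direction: no circle passes the lines, and Grik4, Grik2 and Grm7 pass the lower one in the first series.

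Comparisons with saline EGFP+ cells rest on 5 cells. Their log2 levels were 0.86, 5.62, 9.15, 1.96 and 0 for Gria1, which was lower than in saline EGFP- cells by 4.28 in the mean (3.52 ± 3.81). In summed counts the difference of Gria1 was -1.66. Gria3 levels were 0.41, 0, 7.25, 1.29 and 0 (difference -2.82), and Grm2 levels 7.54, 1.85, 0, 0.79 and 0 (difference -2.10). The means of Gria3 and Grm2 thus rest on 1 high cell each. Grin2b was high in all 5, at 7.43, 8.19, 9.75, 7.79 and 6.98, and Gria2 had 7.27, 4.11, 11.37, 12.75 and 1.36.

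Of the 19 measured genes 3 were at least 2 lower and 0 at least 2 higher in saline EGFP+ cells, against 18.2% and 6.27% of all 7708 genes. Microglial markers stood at a median of 28988 CPM in these 5 cells (13.8 to 49988, all 16 markers listed above 0) and of 269.1 CPM in saline EGFP- cells (0 to 54078), and their part in the differences was not tested.

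Between KA and saline EGFP+ cells, Grm7, Gria4 and Cnih3 had the largest differences among the 30 genes over all titles and in the second series. Gria4 levels in the saline cells were 0, 0.45, 0, 0 and 0, those of Grm7 3.99, 0, 0, 0 and 1.36, and those of Cnih3 9.12, 0, 0, 1.29 and 0.83. The differences were 5.06 for Grm7, 5.03 for Gria4 and 3.90 for Cnih3 over all titles, and 7.56, 7.15 and 7.06 in the second series, where 3 KA cells stand against 5 saline cells. In summed counts they were 5.74, 6.97 and 0.646, the last below Grik2 (3.51) and Grin2a (3.20), as 1 saline cell held 3386 counts of Cnih3. In those 3 KA cells Grm7 was at 8.26, 10.17 and 7.47 and Cnih3 at 9.25, 8.76 and 9.92, so that in the second series every KA cell lay above every saline cell for 2 of 20 measured genes, Gria4 and Grm7, and for 2.51% of all 7361 genes. Gria4 had a mean below 1 in the saline EGFP+ cells and was measured only through its KA level. Counts over the measured genes favour such genes. In all, 9 of 21 measured genes were at least 2 higher and 0 at least 2 lower, but so were 36.2% and 5.17% of all 8709 genes, with a median difference of 1.34 over all genes and 1.597 over the 21. A count of 9 of 21 is thus close to the background.

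Genes that work with these receptors were taken from lists made by function, with earlier results of these data known. Of 26 further AMPA receptor partners, 15 of 21 measured were higher in KA than in saline EGFP- cells (median 0.59), and in the second series it was 7 of 19 (median -0.46). These shares of higher genes were near the 65.6% and 32.5% of all genes. Over all titles 3 partners were at least 2 higher and 3 at least 2 lower, against 7.93% and 2.48% of all genes. In the second series it was 0 and 7, against 1.93% and 13.6%. The largest differences over all titles were negative: Prrt2 at -2.69, Olfm1 at -2.36 and Prrt1 at -2.31. Of 25 postsynaptic scaffold genes 13 of 23 were higher over all titles (median 0.07), with the largest differences for Shank1 at 3.01, Dlgap2 at 2.89 and Dlgap4 at 2.76. In the second series it was 6 of 21 (median -0.72), and the largest differences there were negative: Dlg3 at -3.49, Camk2b at -3.12 and Dlgap1 at -2.94. There 1 scaffold gene was at least 2 higher and 4 at least 2 lower, against 1.93% and 13.6% of all genes. Of 12 genes of glutamate uptake and supply 7 of 10 were higher (median 1.15), but 1 of 8 in the second series (median -1.17). The glial transporter gene Slc1a3 (-2.88), itself among the astrocyte markers, and the glutamine synthetase gene Glul (-2.25) had the largest differences, while astrocyte markers had median sums of 128 CPM in KA and 310 CPM in saline EGFP- cells, whose part was not tested. Over all genes the median difference was 0.44, and -0.55 in the second series. After KA, 17 of 21 measured partners had a higher mean in EGFP+ cells than in EGFP- cells (median 0.57), and 7 of 21 in the first series (median -0.28), against 65.1% and 35.6% of all genes.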

How the data were processed

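The members and gene lists were chosen with earlier results of these data known. Per the submitters' processing notes, the authors used Trimmomatic, STAR, featureCounts and kallisto on GRCm38; versions are not given in the sources used here. They deposited whole read counts per gene for all cells and for the quality-controlled cells, and a normalized signal, in which each cell's counts are multiplied by a single factor (0.118 to 147.5; how it was set is not given in the sources used here). The 95 cells shared by the count tables had 0 differing values. The libraries (Nextera XT, per the labels' protocols) carry no molecular identifiers. Intervals cover counting of cells only and not differences between mice.

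Cells came from the quality-controlled table, groups from the labels. The study states 57 saline EGFP- cells as passed and the table gives 27; of the 95 cells 13 are labelled as failed. The 92 spike-in rows (6 counts) were left out. Counts were scaled to CPM and compared as log2(CPM+1). A member got its lowest, median and highest value where its difference was at least 2 in size over all titles or in the second series; others got means or counts. Promoters came from RefSeq (GRCm38.p6), exon lengths and overlaps from GENCODE M21. The calculation was tested on simulated counts drawn from a pooled profile. These lack the spread between cells and the many zeros of the real data, so the test does not cover them. Python 3.11.15, numpy 2.4.6, pandas 2.3.3, scipy 1.17.1 and matplotlib 3.10.9 were used.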

Additional observations from a re-analysis of the deposited data

Results flagged for a closer look

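Within the 5 saline EGFP+ cells, the highest cell stood far from the other 4 for 8 of the 30 genes, by a gap over 0.71 of the range. The log2 levels of that cell were 7.25 for Gria3, 0.45 for Gria4, 3.50 for Grik2, 3.26 for Grin2c, 2.51 for Grid1, 7.54 for Grm2, 8.48 for Grm3 and 9.12 for Cnih3. For normally distributed values chance gives such a gap in about 1 in 20 groups, a rate that need not hold for levels with many zeros. For Gria4, Grik2, Grin2c and Grid1 a single cell had any count, so the gap is the whole range.

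The 20 cells left out of the quality-controlled table (17 to 1287711 counts, median 474183) enter no comparison. Together they held more than 3 counts of 23 of the 30 genes, with 16497 counts of Gria2 in 14 cells and 6379 of Gria1 in 10 cells.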

How the results depend on the processing

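Each group is 1 sample of unknown mice, and this, the spread between cells and depth all limit what can be seen. Their parts were not compared. For KA against saline in EGFP- cells, the number of genes at least 2 lower was 1 with the authors' normalized signal, 2 without cells at 0.1% or more of microglial markers and 2 in the second series; the number at least 2 higher was 2 with a pseudocount of 10, 2 in summed counts and 1 in the second series. In summed counts Gria4 differed by 4.85, Grm7 by 2.79, Grik2 by 1.72 and Cnih3 by 0.97. For EGFP+ against EGFP- cells after KA, the number at least 2 lower was 3, 4 and 2 in the first series, in its titles 20 to 48 and in the second series, and 4 were at least 2 higher in the last. Of all genes, 44.1% were higher in titles 20 to 48 (median -0.20) and 68.0% in the second series (median 0.92). The shares of all genes at least 2 apart are not given for those sets, so these counts cannot be set against a background.

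With the 5 saline EGFP+ cells, numbers moved more. Against saline EGFP- cells, 2 genes were at least 2 higher with the normalized signal, and 1 each in summed counts, relative to all genes and in cells also labelled as passed; 1 was at least 2 lower with a pseudocount of 10 and 8 in cells labelled as passed. Leaving out each cell gave 0 to 1 higher and 2 to 5 lower. For KA against saline EGFP+ cells, the number at least 2 lower was 2 with the normalized signal, 3 relative to all genes, 1 in cells labelled as passed and 3 in the second series; the number at least 2 higher was 5 with a pseudocount of 10 and 4 relative to all genes. The median was 0.67 in summed counts and 0.26 relative to all genes. Leaving out each cell gave 7 to 11 higher and medians of 1.23 to 2.02. In the second series 63.3% of all genes were higher, with a median of 0.877. The shares of all genes at least 2 apart are not given for these settings. Gria2 turned to -0.31 in summed counts and Grm2 to -1.08 in the second series.

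Between the title series, 10 genes were at least 2 higher with the normalized signal, 2 with a pseudocount of 10, 0 in summed counts and 1 relative to all genes; the median was 0.68, -0.15 and -0.085 under the last 3, and Grm7 turned to -0.92 in summed counts. The cause was not tested. Of the values that answer a comparison, 191 were within the limits set for them and 35 moved; of the others 663 and 38, and 3 changed direction. Alternatives that split cells by genes or markers were chosen after seeing the data. Leaving out cells with microglial markers was not run for saline EGFP+ cells, of which 1 would be left. No paired analysis was possible because the labels give no replicate numbers.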
